A study of Mus musculus with 10 samples.

Results

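The genes of oxidative phosphorylation were followed through the first 120 min of T cell activation. They were taken by name from the deposited table: every gene beginning with Nduf, Uqcr, Cox4 to Cox8, Atp5, mt-Nd, mt-Co, mt-Cytb or mt-Atp, plus Sdha, Sdhb, Sdhc, Sdhd and Cyc1, without pseudogenes marked -ps. This gave 91 of the 12637 genes, 84 encoded in the nucleus and 7 (mt-Nd1, mt-Nd2, mt-Nd4, mt-Nd5, mt-Nd6, mt-Co1 and mt-Cytb) on mitochondrial DNA. The table held no mt-Atp gene and, of the mt-Co genes, mt-Co1 alone. The mt- members and their sums therefore cover only part of the mRNAs of mitochondrial DNA, with none for complex V. The name rule also takes in 7 assembly factors of complex I (Ndufaf1 to Ndufaf7), the supercomplex assembly protein Cox7a2l, and Atp5s and Atp5sl, which carry the Atp5 prefix without being subunits of the enzyme. Ndufa4 was counted with complex IV, of which its protein is a subunit.

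Oxidative phosphorylation passes electrons from NADH through complex I (NADH dehydrogenase), or from succinate through complex II (succinate dehydrogenase), to ubiquinone. Complex III hands them on to cytochrome c and complex IV to oxygen, and the proton gradient that complexes I, III and IV build drives ATP synthesis by complex V. Complexes I, III, IV and V combine subunits made from both genomes, while every subunit of complex II is nuclear, so transcripts of the nucleus and of mitochondrial DNA, which are made by separate RNA polymerases, have to be matched. Naive T cells rely mainly on this pathway for ATP, and activated T cells add glycolysis and later build more mitochondria.

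The cells were naive CD8+ T cells of the spleen, taken from female C57Bl/6 mice at 6 weeks of age and sorted as CD62Lhi and CD44lo/- after negative enrichment. The mice were Ikaros-Zn4-/-, in which the lymphocyte transcription factor Ikaros lacks zinc finger 4 of its DNA-binding domain, or wild type (WT). Sorted cells were used directly (0 min) or kept for 30 or 120 min on plates coated with anti-CD3 and anti-CD28, which trigger the T cell receptor complex and its costimulatory receptor. Each genotype, Ikaros-Zn4-/- and WT, gave 2 libraries for each of the 0 and 30 min groups and 1 for 120 min, 10 in all. No label says that the libraries of a group came from separate mice or how many mice went into each, so the p-values cover the spread among these samples alone, which may be technical. In bulk RNA, fewer cells of a kind and less RNA per cell cannot be told apart.

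Levels are RPKM, reads per kilobase of transcript and M (mega) mapped reads, as the authors deposited them, and the read depth recovered from them was 4.50 to 13.3 M reads per library. Changes are log2 changes of RPKM + 1 from limma, fitted to the 12203 genes that averaged 0.5 RPKM or more, with p-values adjusted over all of these genes, and a gene was called at an adjusted p below 0.05. The median of all genes was itself at -0.13 at 30 min and -0.32 at 120 min against 0 min, so each change is also given relative to that median, and calls were repeated after median-ratio scaling of the libraries, which removes the shift. All 10 naive CD8 T cell markers listed had values, and they summed to 1786 and 1932 RPKM at 120 min, against 3295 to 3984 RPKM at 0 min. Of the other cell types, 4 of 6 B cell markers summed to 79.8 to 412 RPKM, 3 of 6 natural killer cell markers to 12.9 to 111 RPKM, 3 of 6 myeloid markers to 8.14 to 34.2 RPKM and 2 of 6 CD4 or regulatory T cell markers to 3.0 to 34.9 RPKM over the libraries, while none of the 8 erythroid and platelet markers had a value. The CD4 or regulatory T cell markers with values were Ctla4 and Il2ra, whereas Cd4 and Foxp3 had none.

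The members showed 2 patterns after stimulation. At 120 min the nuclear members were lower: 60 of the 83 tested fell and 0 rose against 0 min, with a median log2 change of -0.84, where 40.4% of all genes fell and 19.3% rose. None of the 7 mt- members was called by limma (0 had an unadjusted p below 0.05, and limma-voom, run on recovered reads, called 0), and their median change was 0.11. After median-ratio scaling, 41 nuclear members fell and 4 rose, with a median of -0.49, and 2 mt- members rose, with a median of 0.51. On that scale 30.0% of all genes fell and 29.8% rose, 3659 against 3635 genes, whereas the deposited scale gave 4935 lower and 2356 higher. All 41 were among the 60, and no member that fell on the deposited scale rose after rescaling. Both 120 min libraries lay below all 4 libraries at 0 min for 68 of the 84 nuclear members, a pattern shown by 41.9% of all genes of the table, and for 0 of the 7 mt- members.

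**Figure D1:**
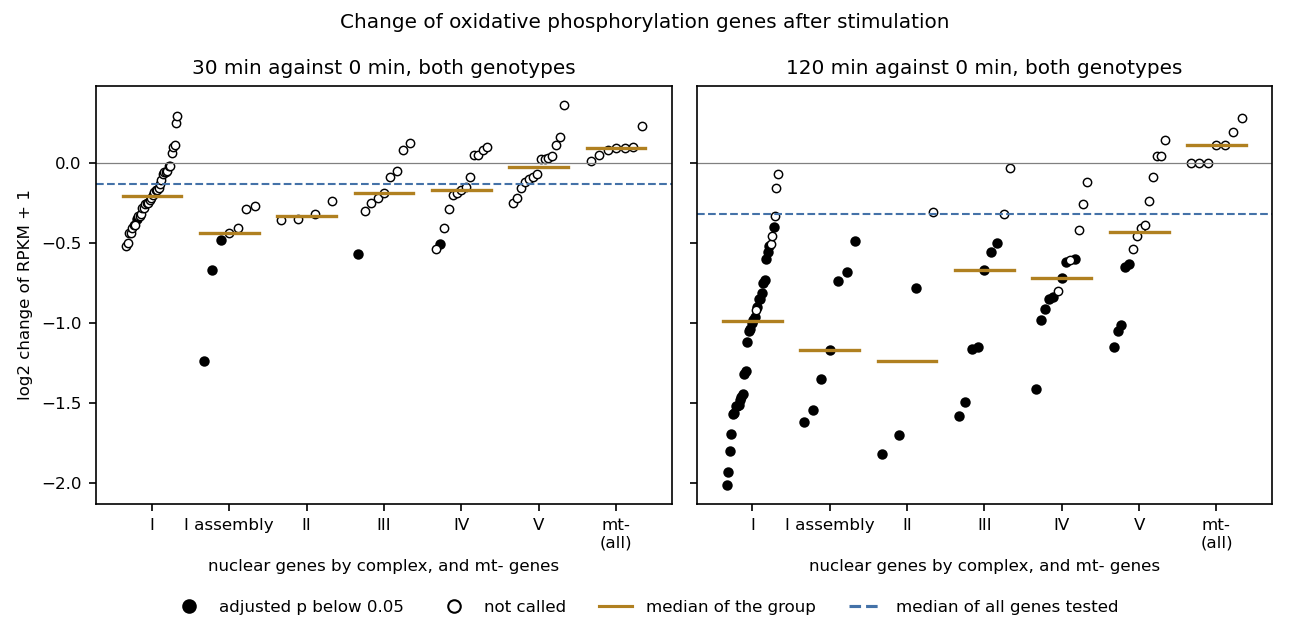
Log2 change of RPKM + 1 (y axis) of each of the 90 tested members at 30 min (left) and 120 min (right) against 0 min over both genotypes, by complex, sorted by size within a group. Filled points passed an adjusted p of 0.05, bars are group medians and the dashed line is the median of all 12203 genes tested (-0.13 and -0.32). At 120 min most nuclear members lie below the dashed line and the 7 mt- members lie at or above 0.

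The summed level of the nuclear members at 0, 30 and 120 min was 3049 and 3734, 3039 and 3744, and 2152 RPKM in Ikaros-Zn4-/- cells. In WT cells the sums were 2666 and 3328, 2412 and 2787, and 1915 RPKM. On the deposited scale both 120 min libraries thus held less nuclear-encoded transcript than any earlier library, while the libraries at 0 and 30 min overlapped. The 7 mt- members summed to 4654 and 5658, 4146 and 6924, and 5462 RPKM at 0, 30 and 120 min in Ikaros-Zn4-/- cells, and to 4614 and 6095, 4984 and 6741, and 5425 RPKM in WT cells. Here the 120 min libraries lay inside the range of the earlier ones, again on the deposited scale. The median-ratio factors were 0.8372 and 0.8449 at 120 min, against 1.057 to 1.161 at 0 min. Such scaling would raise the 120 min sums relative to the earlier ones, so both comparisons of sums depend on the scale.

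The ratio of the mt- sum to the nuclear sum was accordingly highest at 120 min. It was 1.53 and 1.52 at 0 min, 1.36 and 1.85 at 30 min and 2.54 at 120 min in Ikaros-Zn4-/- cells, and 1.73 and 1.83, 2.07 and 2.42, and 2.83 at these times in WT cells. The ratio needs no scaling between libraries, since both sums come from the same library. Expressed as medians, the nuclear members changed relative to the mt- members by -1.06 log2 units at 120 min against 0 min and by -0.14 at 30 min, with a pooled SD of 0.24 between libraries of a group. No test was made of this score, because its genes share their libraries.

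**Figure D2:**
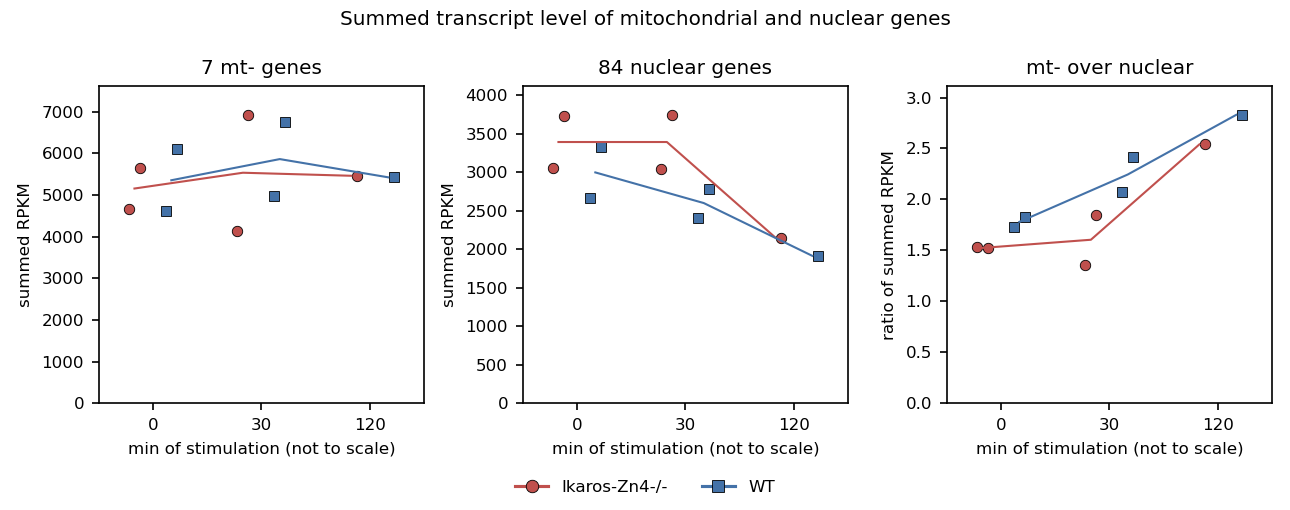
Summed RPKM of the 7 mt- members (left) and of the 84 nuclear members (middle), and their ratio (right), in each of the 10 libraries against min of stimulation. Points are libraries and lines join group means, with Ikaros-Zn4-/- left of WT. On the deposited scale the nuclear sums are lowest at 120 min (2152 and 1915 RPKM), and the ratio is highest there (2.54 and 2.83).

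The replicate number moved with the mitochondrial level. In all 4 groups with a pair of libraries, the library numbered 2 had the higher value for all 7 mt- members and for 50 of 84 nuclear members, against 20.5% of all genes, and both 120 min libraries are numbered 2 in their descriptions. The title of the Ikaros-Zn4-/- library at 120 min gives 1 instead, and with that number the comparison below would not match it by number. The summed RPKM of all genes was also higher in library 2 in all 4 groups. Against the libraries numbered 2 at 0 min alone, 81 nuclear members were lower at 120 min in both genotypes and 0 were higher, whereas 4 mt- members were lower and 1 was higher in both. Of all genes 54.5% were lower and 28.6% higher in both.

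The mt- members are described by the complex they serve. mt-Co1, the catalytic subunit of complex IV, was the most abundant member, with 1428 and 1636, 1253 and 2047, and 1569 RPKM at the 3 times in Ikaros-Zn4-/- cells. WT cells had 1350 and 1777, 1461 and 1955, and 1499 RPKM. Its change at 120 min was 0.00 ± 0.26 (SE, adjusted p = 0.992), and its values overlapped between all times. mt-Cytb, the cytochrome b subunit of complex III, had 1227 and 1552, 1059 and 1829, and 1388 RPKM at 0, 30 and 120 min in Ikaros-Zn4-/- cells and 1260 and 1654, 1340 and 1745, and 1441 RPKM in WT cells. The change of mt-Cytb at 120 min was 0.00 ± 0.28 (adjusted p = 0.996).

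The 5 mt- subunits of complex I belong to its membrane arm. mt-Nd1, next to the ubiquinone site, had 680 and 859, 664 and 1126, and 923 RPKM at 0, 30 and 120 min in Ikaros-Zn4-/- cells and 713 and 919, 831 and 1154, and 874 RPKM in WT cells, a change of 0.19 ± 0.27 at 120 min (adjusted p = 0.574). For mt-Nd2 and mt-Nd4, members of the proton-pumping part, the changes were 0.00 ± 0.29 and 0.11 ± 0.27 (adjusted p = 1.0 and 0.755). mt-Nd5 had 373 and 414, 342 and 496, and 422 RPKM in Ikaros-Zn4-/- cells and 339 and 441, 374 and 472, and 418 RPKM in WT cells. Its change of 0.11 ± 0.21 (adjusted p = 0.683) became 0.52 after median-ratio scaling (adjusted p = 0.0299).

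mt-Nd6 had the largest change of the 7 mt- members, at 0.28 ± 0.28 (adjusted p = 0.434). It had 260 and 326, 218 and 416, and 356 RPKM in Ikaros-Zn4-/- cells and 261 and 331, 276 and 380, and 353 RPKM in WT cells, with both 120 min libraries above all 4 at 0 min. After median-ratio scaling its change was 0.68 (adjusted p = 0.045). The gene lies on the strand opposite the other 6 (chromosome M, 13552 to 14070, GRCm38) and its end overlaps mt-Nd5 (11742 to 13565). Because the library kit does not mark strand, reads of this overlap, and of any antisense transcript, cannot be assigned to either gene.

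RNAs of the mitochondrial genome outside the module were not uniform. Of 10 other mt- genes tested, 2 rose and 1 fell at 120 min, where 19.3% of all genes rose and 40.4% fell. Both that rose were the ribosomal RNAs. The rest were short transfer RNA genes, most of them with 0 RPKM in some library. mt-Rnr1, the small ribosomal RNA, had 29.1 and 37.0, 54.9 and 87.9, and 201 RPKM at 0, 30 and 120 min in Ikaros-Zn4-/- cells and 26.3 and 44.2, 74.1 and 93.0, and 134 RPKM in WT cells. The times did not overlap in either genotype, and the change at 120 min was 2.26 ± 0.27 (adjusted p = 0.000388). mt-Rnr2, the large ribosomal RNA, rose by 1.30 ± 0.17 (adjusted p = 0.000665). The gene that fell was the transfer RNA gene mt-Tp, which is short and had 0 to 16.6 RPKM. The same 2 ribosomal RNAs were the genes of this list that rose at 30 min, where 6.51% of all genes rose.

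The nuclear members were also compared by promoter sequence. RefSeq promoters (GRCm38.p6, 250 bases before to 50 after the transcription start) matched 71 of the 84 nuclear members. These windows were searched on both strands for the core of the motif of NRF1, a regulator of respiratory chain genes (GCGCATGCG), for the ETS motif bound by GABP among others (CCGGAAG), for the YY1 motif (AAGATGGC) and for the TATA box (TATAAA). No motif contains another. The windows of 5 genes are printed, with matches in capitals on whichever strand they lie: Uqcr11 carries the NRF1 core and the ETS motif, Ndufa8 the NRF1 core, Ndufs7 carries the YY1 motif and a TATA box, and Ndufb3, which fell most, and Atp5b, which was not called, carry none of the motifs.
Uqcr11, chr10:80406772-80407071, minus strand: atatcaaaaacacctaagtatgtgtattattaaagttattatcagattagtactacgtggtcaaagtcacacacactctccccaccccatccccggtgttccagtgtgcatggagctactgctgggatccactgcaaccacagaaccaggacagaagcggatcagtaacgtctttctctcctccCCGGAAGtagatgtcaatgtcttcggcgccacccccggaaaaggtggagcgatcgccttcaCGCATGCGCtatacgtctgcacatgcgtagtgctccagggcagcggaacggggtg
Ndufa8, chr2:36049289-36049588, minus strand: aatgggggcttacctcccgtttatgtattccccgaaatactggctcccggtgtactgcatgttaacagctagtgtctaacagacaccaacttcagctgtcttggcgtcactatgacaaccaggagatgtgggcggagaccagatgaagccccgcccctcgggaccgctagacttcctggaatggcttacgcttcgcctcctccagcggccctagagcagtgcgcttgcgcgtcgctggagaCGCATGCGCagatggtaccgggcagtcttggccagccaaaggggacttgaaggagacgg
Ndufs7, chr10:80249199-80249498, plus strand: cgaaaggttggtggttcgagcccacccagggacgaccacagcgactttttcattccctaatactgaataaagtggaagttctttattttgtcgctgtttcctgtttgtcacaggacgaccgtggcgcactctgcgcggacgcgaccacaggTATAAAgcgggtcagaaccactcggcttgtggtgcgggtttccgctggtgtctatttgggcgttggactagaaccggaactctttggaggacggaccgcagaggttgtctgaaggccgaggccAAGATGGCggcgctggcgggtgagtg
Ndufb3, chr1:58586147-58586446, plus strand: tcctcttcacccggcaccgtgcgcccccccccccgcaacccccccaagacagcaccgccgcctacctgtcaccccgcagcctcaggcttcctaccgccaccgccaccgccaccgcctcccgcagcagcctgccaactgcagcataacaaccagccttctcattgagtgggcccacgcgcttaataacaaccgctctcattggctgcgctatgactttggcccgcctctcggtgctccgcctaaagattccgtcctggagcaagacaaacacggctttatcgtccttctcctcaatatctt
Atp5b, chr10:128083057-128083356, plus strand: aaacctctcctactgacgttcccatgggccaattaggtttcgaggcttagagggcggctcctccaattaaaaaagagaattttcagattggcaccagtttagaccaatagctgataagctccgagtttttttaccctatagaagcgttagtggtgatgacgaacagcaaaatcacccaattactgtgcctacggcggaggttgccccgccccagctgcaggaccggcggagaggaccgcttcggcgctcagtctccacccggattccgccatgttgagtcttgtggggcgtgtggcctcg

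The NRF1 core was found in 9 of the 71 windows (12.7%), against 4.72% of 7783 genes of the table with a window and 1.95% of all 27025 windows. The YY1 motif was found in 11 windows (15.5%), against 6.05% of genes of the table. The ETS motif was as common among members (23.9%) as among genes of the table (22.6%), as was TATAAA (7.04% and 7.84%). Members that fell at 120 min and members that were not called held the NRF1 core in 14.0% and 10%, the ETS motif in 22.0% and 30.0%, the YY1 motif in 18.0% and 10%, and TATAAA in 8.0% and 5.0% of 50 and 20 windows. The NRF1 shares stand for 7 of 50 and 2 of 20 windows. A match describes the letters only.

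For the counts by complex that follow, 40.4% of all genes fell and 19.3% rose at 120 min. After median-ratio scaling 30.0% fell and 29.8% rose. Complex I had the most members. Of 36 nuclear subunits tested, 30 fell at 120 min with a median change of -0.99, and 23 fell after median-ratio scaling. The 7 core subunits, which carry the flavin and the iron-sulfur clusters, all fell, with a median of -1.32, and so did 23 of the 29 accessory subunits, with a median of -0.92. After scaling the counts were 6 and 17. Ndufs7, which holds the last iron-sulfur cluster before ubiquinone and whose promoter is printed above, had at 0, 30 and 120 min 16.0 and 30.2, 20.0 and 22.5, and 5.19 RPKM in Ikaros-Zn4-/- cells, and 27.9 and 31.9, 16.4 and 16.6, and 6.88 RPKM in WT cells. Both 120 min libraries lay below every earlier library, a change of -1.93 ± 0.23 (adjusted p = 0.00039), or -1.62 relative to the median gene.

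Ndufv1, the flavin subunit that accepts electrons from NADH, was among the most regular. It had 30.1 and 33.7, 25.7 and 29.4, and 9.27 RPKM at 0, 30 and 120 min in Ikaros-Zn4-/- cells, and 27.6 and 29.5, 22.0 and 24.1, and 10.7 RPKM in WT cells. Both 120 min libraries lay far below every earlier library, and the change was -1.51 ± 0.11 (adjusted p = 6.68e-05). Ndufs1, the largest core subunit, changed least of the 7, by -0.40 ± 0.12 (adjusted p = 0.0231), and was at -0.04 after median-ratio scaling (adjusted p = 0.759).

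Among the accessory subunits, Ndufb3 of the membrane arm had 36.4 and 35.8, 24.3 and 34.1, and 7.83 RPKM in Ikaros-Zn4-/- cells and 21.8 and 28.8, 23.2 and 26.1, and 5.74 RPKM in WT cells. It was the member with the largest fall, -2.01 ± 0.17 (adjusted p = 0.000105), with both 120 min libraries below all others. Ndufa8, whose promoter holds the NRF1 core, fell by 1.46 ± 0.15 on the log2 scale (adjusted p = 0.000222), with 18.6 and 15.7 RPKM at 120 min in Ikaros-Zn4-/- and WT cells, against 42.5 to 58.5 RPKM at 0 min. The 6 subunits that were not called were Ndufa6, Ndufa11, Ndufab1, Ndufb6, Ndufb11 and Ndufv3. Ndufa6 was the most abundant nuclear subunit of complex I, with 110 and 165, 138 and 182, and 101 RPKM in Ikaros-Zn4-/- cells and 95.3 and 135, 101 and 120, and 74.2 RPKM in WT cells. Its 0 and 120 min libraries overlapped with the genotypes pooled, but within each genotype the 120 min value lay below both 0 min values. Its change was -0.51 ± 0.23 (adjusted p = 0.0945).

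The assembly factors of complex I, which bring its modules together without staying in the enzyme, all fell at 120 min. The 7 had a median change of -1.17, and 4 of them fell after median-ratio scaling. Ndufaf7, a methyltransferase of the mitochondrial matrix, had 5.54 and 5.50, 4.07 and 5.12, and 0.613 RPKM in Ikaros-Zn4-/- cells and 4.45 and 3.47, 3.30 and 2.69, and 1.12 RPKM in WT cells. Its 120 min libraries lay below all others, a change of -1.62 ± 0.16 (adjusted p = 0.000166). Such low levels make the change of RPKM + 1 smaller than that of RPKM itself. Ndufaf3 fell by 1.35 ± 0.14 on the log2 scale (adjusted p = 0.000236).

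Complex II links the citric acid cycle to the chain. Sdha, its flavin subunit, had 65.9 and 66.6, 45.6 and 58.0, and 17.3 RPKM at 0, 30 and 120 min in Ikaros-Zn4-/- cells and 48.5 and 59.5, 39.9 and 44.8, and 18.1 RPKM in WT cells. Both 120 min libraries lay below all others, a change of -1.70 ± 0.14 (adjusted p = 9.84e-05). Sdhc, a membrane anchor with the ubiquinone site, had 18.0 and 18.8, 14.2 and 15.5, and 4.25 RPKM in Ikaros-Zn4-/- cells and 14.0 and 17.8, 10.1 and 13, and 3.99 RPKM in WT cells, a change of -1.82 ± 0.15 (adjusted p = 9.02e-05). Sdhb, the iron-sulfur subunit, fell less, by 0.78 ± 0.17 (adjusted p = 0.00575), and its call was lost without the Ikaros-Zn4-/- library at 120 min (-0.66, adjusted p = 0.0577). Sdhd, the other anchor, had 37.8 and 46.6, 27.2 and 40.7, and 31.7 RPKM in Ikaros-Zn4-/- cells and 31.5 and 40.1, 25.3 and 32.0, and 30.5 RPKM in WT cells. Its times overlapped with the genotypes pooled, but within each genotype the 120 min value lay below both 0 min values. Its change was -0.31 ± 0.20 (adjusted p = 0.233), so 3 of the 4 subunits were called lower.

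In complex III, 7 of 9 nuclear members fell at 120 min, with a median of -0.67, and after median-ratio scaling 4 fell and 1 rose. Cyc1, the cytochrome c1 subunit that passes electrons to cytochrome c, had 64.4 and 79.8, 51.9 and 61.7, and 27.0 RPKM in Ikaros-Zn4-/- cells and 61.1 and 71.2, 36.7 and 37.8, and 33.7 RPKM in WT cells. Its 120 min libraries lay below all others, and its change was -1.16 ± 0.14 (adjusted p = 0.000384). The small subunits Uqcrq and Uqcr11 fell by 1.58 ± 0.35 and 1.49 ± 0.33 on the log2 scale (adjusted p = 0.00658 and 0.00639).

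Uqcrh, the hinge protein between cytochrome c1 and cytochrome c, differed from these. It had 113 and 103, 107 and 116, and 102 RPKM in Ikaros-Zn4-/- cells and 78.9 and 105, 87.7 and 111, and 92.9 RPKM in WT cells. All times overlapped with the genotypes pooled. On the deposited scale its change was -0.03 ± 0.16 (adjusted p = 0.887), whereas after median-ratio scaling it was 0.38 (adjusted p = 0.0417). Uqcrb, which binds near the ubiquinone site, was the other member of the complex that was not called.

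Of the 13 nuclear members of complex IV, 8 fell at 120 min, with a median of -0.72, where 40.4% of all genes fell. After median-ratio scaling 4 of the 13 fell, a share close to the 30.0% of all genes. Cox7b, a small membrane subunit, had 33.3 and 40.6, 26.7 and 34.1, and 15.8 RPKM in Ikaros-Zn4-/- cells and 25.2 and 33.7, 22.8 and 31.3, and 8.63 RPKM in WT cells. Its change of -1.41 ± 0.19 (adjusted p = 0.000773) was the largest of the complex, and both 120 min libraries lay below all others. Cox7a2 fell by 0.98 ± 0.23 (adjusted p = 0.00902), but not without the Ikaros-Zn4-/- library at 120 min (-0.83, adjusted p = 0.0791). Cox4i1, the largest nuclear subunit and the most abundant, had 129 and 168, 146 and 198, and 132 RPKM in Ikaros-Zn4-/- cells and 110 and 138, 110 and 136, and 96.0 RPKM in WT cells, a change of -0.26 ± 0.19 (adjusted p = 0.289). Cox6b1, Cox7a1, Cox7a2l and Cox7c were likewise not called.

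Complex V had the lowest share of called members. Of 14 tested, 5 fell (Atp5k, Atp5j, Atp5c1, Atp5j2 and Atp5e) and 0 rose, with a median of -0.43, where 40.4% of all genes fell, and after median-ratio scaling 3 fell and 3 rose (Atp5a1, Atp5b and Atp5d). Atp5a1 and Atp5b, which form the catalytic hexamer, were the most abundant nuclear members. Atp5a1 had 205 and 230, 199 and 246, and 226 RPKM at 0, 30 and 120 min in Ikaros-Zn4-/- cells and 160 and 198, 162 and 199, and 208 RPKM in WT cells. All times overlapped with the genotypes pooled, but the WT library at 120 min lay above every earlier WT library. The change of Atp5a1 was 0.14 ± 0.16 (adjusted p = 0.487), or 0.55 after scaling (adjusted p = 0.00689). Atp5b had 173 and 147 RPKM at 120 min in Ikaros-Zn4-/- and WT cells, against 126 to 180 RPKM at 0 min, and changes of 0.04 ± 0.16 and, after scaling, 0.44 (adjusted p = 0.86 and 0.0153).

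The subunits called lower included Atp5k, Atp5j and Atp5c1. Atp5k, the e subunit of the membrane part, had 20.7 and 20.5, 18.4 and 18.9, and 8.64 RPKM in Ikaros-Zn4-/- cells and 14.8 and 15.3, 13.3 and 15.6, and 6.34 RPKM in WT cells. Its change was -1.15 ± 0.11 (adjusted p = 0.000136). Atp5j, the F6 subunit of the stalk, fell by 1.05 ± 0.11 (adjusted p = 0.000206), and Atp5c1, the rotating gamma subunit, by 1.01 ± 0.16 (adjusted p = 0.00135). Atp5s was under the filter on low values, with 0.682 to 1.26 RPKM at 0 min, and was not tested.

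**Figure D3:**
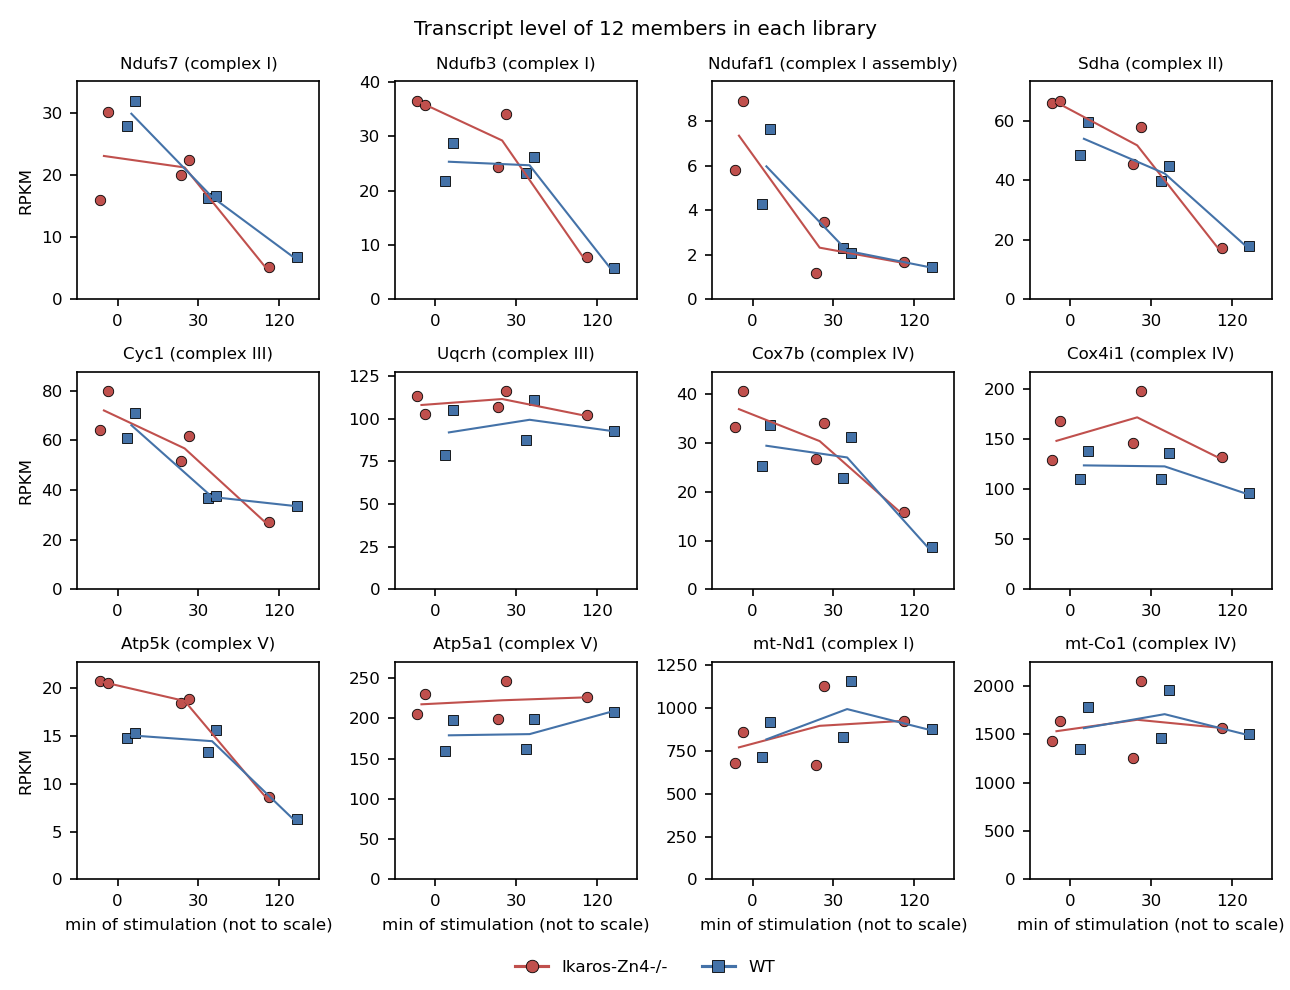
RPKM (y axis, from 0) of 12 members in each of the 10 libraries against min of stimulation, with Ikaros-Zn4-/- left of WT. Points are libraries and lines join group means. Ndufs7, Ndufb3, Sdha, Cyc1, Cox7b and Atp5k are lowest at 120 min in both genotypes, whereas Uqcrh, Cox4i1, Atp5a1, mt-Nd1 and mt-Co1 overlap between times with the genotypes pooled.

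Gene length and level were compared between the nuclear members that fell and those that were not called. The median summed exon length of members that fell was 1802 bases, against 1550 bases for members not called, and their median level at 0 min was 21.4 RPKM, against 22.6 RPKM. Across the 83 tested members, which are not independent, the change at 120 min had a Pearson's r of 0.26 with log2 exon length and 0.08 with the log2 level at 0 min (Spearman's rho 0.24 and 0.10). The nuclear members lay on 19 chromosomes, with 7 or fewer on any of them. Levels between genes are less certain than changes, since many of these genes have processed copies elsewhere in the genome, and how reads matching several places were counted is not given in the sources used here. In addition, 6 members had under 10 recovered reads in some library.

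Most of the calls came later than 30 min. Against 0 min, 6 nuclear members fell and 0 rose at 30 min, with a median change of -0.19, where 12.5% of all genes fell and 6.51% rose. All 4 libraries at 30 min lay below all 4 at 0 min for 6 of 84 nuclear members, a pattern shown by 14.5% of all genes. After median-ratio scaling 3 fell and 1, Ndufv3, rose, against 6.85% and 9.16% of all genes. The count was 0 without the WT library 2 at 0 min and without either WT library at 30 min, and 1 without the Ikaros-Zn4-/- library 2 at 0 min or library 1 at 30 min. None of the 7 mt- members was called by limma or limma-voom, and 0 had an unadjusted p below 0.05.

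Of the 6 that fell at 30 min, 3 were complex I assembly factors. All 6 also fell at 120 min, in a comparison with the same 0 min libraries and without the overlap over all genes beside it. Ndufaf1, a chaperone of the membrane arm, had 1.17 and 3.47 RPKM in Ikaros-Zn4-/- cells at 30 min, against 5.80 and 8.88 RPKM at 0 min. In WT cells it had 2.30 and 2.06 RPKM at 30 min, against 4.28 and 7.65 RPKM at 0 min. All 4 libraries at 30 min lay below all 4 at 0 min, a change of -1.24 ± 0.28 (adjusted p = 0.0256). The levels at 120 min, 1.66 and 1.46 RPKM in Ikaros-Zn4-/- and WT cells, lay within the range at 30 min. Ndufaf4 showed the same course, with 2.70 to 3.08 RPKM at 30 min and 2.81 to 2.87 RPKM at 120 min, against 4.34 to 6.03 RPKM at 0 min, and changes of -0.67 ± 0.13 and -0.68 ± 0.16 (adjusted p = 0.0161 and 0.00796). Cyc1 fell by 0.57 ± 0.11 at 30 min (adjusted p = 0.0174), Ndufaf3 by 0.48 ± 0.12, Cox5a by 0.51 ± 0.14 and Ndufs1 by 0.35 ± 0.10 (adjusted p = 0.0326, 0.042 and 0.0476). Ndufaf1, Ndufaf4 and Cyc1 kept the call after median-ratio scaling, and Ndufaf3, Cox5a and Ndufs1 did not.

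Directly between 120 and 30 min, 46 nuclear members fell and 0 rose, with a median of -0.70, where 31.3% of all genes fell and 16.9% rose. Of the 60 members that fell against 0 min, 44 also fell against 30 min, but both comparisons use the same 120 min libraries. The matching overlap over all genes is not given here. Both 120 min libraries lay below all 4 at 30 min for 53 of 84 nuclear members and for 35.3% of all genes. Without the Ikaros-Zn4-/- library at 120 min the count was 24. The 7 mt- members had a median of -0.01, with 0 called by limma or limma-voom and 0 at an unadjusted p below 0.05.

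Each genotype showed the fall at 120 min alone. In Ikaros-Zn4-/- cells 48 nuclear members fell and 0 rose, with a median of -0.87, where 32.6% of all genes fell. The count was 30 without the library 2 at 0 min, and 28 after median-ratio scaling, where 22.9% of all genes fell. In WT cells 40 fell and 0 rose, with a median of -0.78, where 29.5% of all genes fell. The genotypes shared 36 of these, which is 75.0% of the Ikaros-Zn4-/- list and 90.0% of the WT list. The matching overlap over all genes is not given here, and both lists use the same estimate of spread. Sdha, which was on both lists, was at -1.88 ± 0.20 in Ikaros-Zn4-/- cells and -1.52 ± 0.20 in WT cells (adjusted p = 0.000618 and 0.0014). The difference between the genotypes' responses at 120 min was not tested, as it rests on 1 library each.

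At 30 min 0 members were called in Ikaros-Zn4-/- cells by limma, where 2.74% of all genes were called in either direction, and 1 by limma-voom. At an unadjusted p below 0.05, 3 members were higher and 4 lower, with no share of all genes given at that threshold. In WT cells limma called 1 member, Cyc1, lower at -0.81 ± 0.16 (adjusted p = 0.0343), where 6.03% of all genes were called, and limma-voom called 6 lower. Without any of the 4 WT libraries at 0 or 30 min limma called 0. For Cyc1 the value in Ikaros-Zn4-/- cells was -0.34 ± 0.16 (adjusted p = 0.263). The interaction of genotype and 30 min was called for 0 members by limma and by limma-voom, and by limma for 0.0% of all genes. At an unadjusted p below 0.05 there were 5 nuclear members, again without a share of all genes at that threshold. The median interaction over the nuclear members was 0.20, against 0.00 over all genes.

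Between the genotypes, the nuclear members called were higher in Ikaros-Zn4-/- cells. Over all times limma called 4 of 83 higher (Ndufb9, Atp5k, Cox6c and Cox5a) and 0 lower. The share called higher was below that of all genes, of which 6.19% were higher and 3.24% lower. The median difference was 0.21 over the nuclear members and 0.01 over all genes. At an unadjusted p below 0.05, 27 of 83 were higher and 0 lower, against 1635 higher and 1203 lower of all 12203 genes. With limma-voom 8 nuclear members were called higher and 0 lower. None of the 7 mt- members was called by limma or limma-voom, 0 had an unadjusted p below 0.05, and their median was -0.04.

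Ndufb9, an accessory subunit of the membrane arm of complex I, had 51.4 and 69.6 RPKM in Ikaros-Zn4-/- cells, against 37.5 and 44.6 RPKM in WT cells, at 0 min. At 30 min it had 45.8 and 57.3 against 29.4 and 36.9 RPKM, and at 120 min 23.4 against 11 RPKM. The genotypes did not overlap at any time, and the difference was 0.67 ± 0.13 (adjusted p = 0.0121). Atp5k, with its values above, was higher by 0.39 ± 0.07 (adjusted p = 0.0104 by limma, 0.0945 by limma-voom).

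The other 2 were subunits of complex IV. Cox6c had 11 and 12.6, 9.39 and 12.1, and 6.09 RPKM in Ikaros-Zn4-/- cells and 8.59 and 9.53, 7.62 and 8.24, and 4.54 RPKM in WT cells, a difference of 0.36 ± 0.09 (adjusted p = 0.0376). The call was lost without any single library except the first Ikaros-Zn4-/- library at 30 min (adjusted p = 0.0512 to 0.104). Cox5a, a subunit on the matrix side, had 22.1 and 24.1, 16.6 and 22.6, and 13.7 RPKM in Ikaros-Zn4-/- cells and 16.6 and 17.6, 11.1 and 8.22, and 11.9 RPKM in WT cells, a difference of 0.58 ± 0.15 (adjusted p = 0.0398). By complex, the median difference was highest in complex IV, at 0.36, with 0.26 in V, 0.21 in III, 0.20 in II and 0.19 in I.

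**Figure D4:**
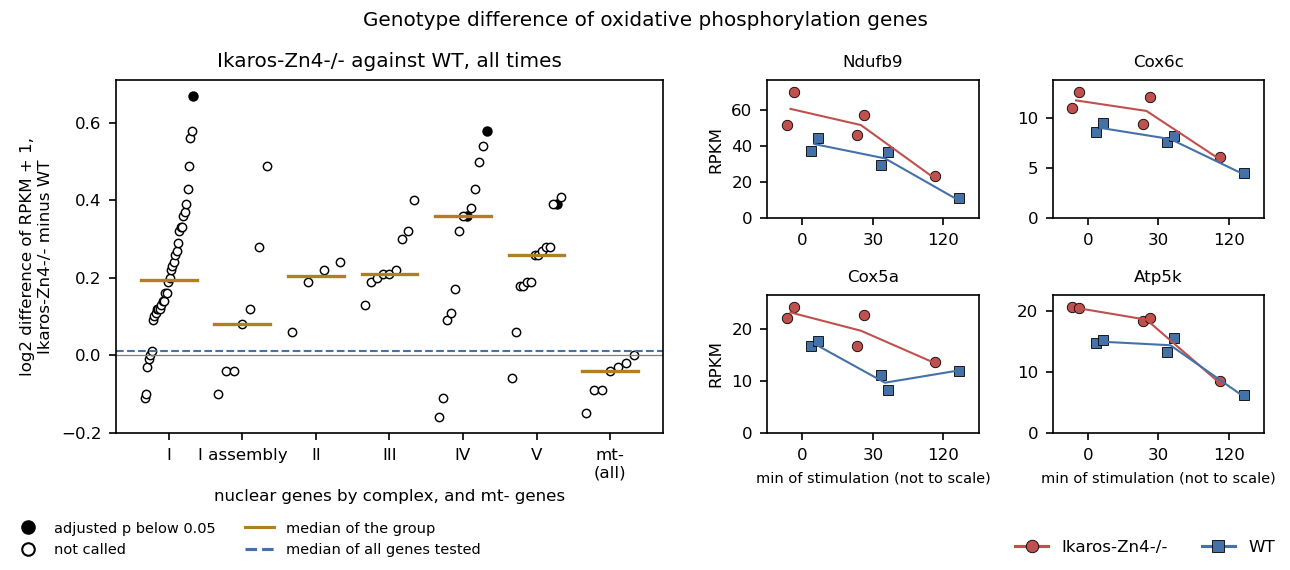
Left, log2 difference of RPKM + 1, Ikaros-Zn4-/- minus WT, over all times for each of the 90 tested members by complex, with filled points at an adjusted p below 0.05, bars at group medians and the dashed line at the median of all genes (0.01). Right, RPKM of the 4 called members in each library, with Ikaros-Zn4-/- left of WT and lines joining group means. Most nuclear members lie above the dashed line and the 7 mt- members lie at or below 0.

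The genotypes were also compared at single times. At 0 min 0 members were called by limma or limma-voom, where limma called 2.47% of all genes. At an unadjusted p below 0.05 there were 5 nuclear members. Both Ikaros-Zn4-/- libraries lay above both WT libraries for 28 of 84 nuclear members, against 24.6% of all genes. At 30 min limma called 0 members, where it called 2.61% of all genes, and limma-voom called 1 member. At an unadjusted p below 0.05 there were 22 nuclear members, all higher. The share of all genes at the unadjusted threshold is not given here for either time. At 30 min both Ikaros-Zn4-/- libraries lay above both WT libraries for 50 of 84 nuclear members, against 25.3% of all genes. At 120 min, with 1 library each, 54 of 84 nuclear members had the higher value in Ikaros-Zn4-/- cells, against 48.7% of all genes.

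Genes listed as markers of other cells moved with genotype and time. The natural killer cell markers Eomes, Gzma and Klrd1 summed to 86.0 and 111, 45.1 and 73.5, and 20.4 RPKM at 0, 30 and 120 min in Ikaros-Zn4-/- cells, against 53.0 and 73.0, 25.4 and 37.3, and 12.9 RPKM in WT cells, and 2 of the 3 were called higher in Ikaros-Zn4-/- cells. The B cell markers summed to 334 and 300, 205 and 282, and 88.1 RPKM in Ikaros-Zn4-/- cells, against 387 and 412, 288 and 342, and 79.8 RPKM in WT cells. The other natural killer cell markers listed, Klrb1c, Ncr1 and Klra8, had no value. Whether these marker transcripts came from other cells or from the CD8+ T cells was not tested, nor was their part in the results on the members.

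Nuclear genes that serve the same pathway were read from lists of known function, beside which 40.4% of all genes fell and 19.3% rose at 120 min (30.0% and 29.8% after median-ratio scaling). For the counts at 30 min, the shares of all genes were 12.5% lower and 6.51% higher. At 120 min the factors that assemble complexes I to V outside the name rule fell like the members: 26 of 35 fell and 1 rose, with a median of -0.95. At 30 min 9 of the 35 fell, a larger share than the 6 of 83 nuclear members. After median-ratio scaling 21 were lower and 1 higher at 120 min. Ecsit, an assembly factor of complex I, had 17.0 and 16.3, 10.7 and 11.7, and 2.26 RPKM at 0, 30 and 120 min in Ikaros-Zn4-/- cells and 15.8 and 18.7, 9.94 and 11.6, and 2.94 RPKM in WT cells. The times did not overlap, and the change at 120 min was -2.32 ± 0.12 (adjusted p = 3.7e-05). Pet100, an assembly factor of complex IV, fell by 2.44 ± 0.17 (adjusted p = 5.69e-05), and Cox18, which inserts a complex IV subunit into the membrane, rose by 0.63 ± 0.20 (adjusted p = 0.0312).

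The mitochondrial ribosomal proteins, which translate the mt- transcripts, fell in 54 of 73 cases and rose in 2, with a median of -1.02 at 120 min, and 15 fell and 1 rose at 30 min. After median-ratio scaling 43 were lower and 4 higher at 120 min. In the citric acid cycle 12 of 16 genes fell and 0 rose at 120 min, with a median of -0.67, and 3 fell at 30 min. After median-ratio scaling 8 were lower and 2 higher at 120 min. Idh2, the NADP-dependent isocitrate dehydrogenase, fell by 2.20 ± 0.14 (adjusted p = 4.77e-05), while Cs, citrate synthase, fell by 0.53 ± 0.16 (adjusted p = 0.0234) and was at -0.12 after median-ratio scaling (adjusted p = 0.417). Pdha1 of pyruvate dehydrogenase was at -0.01 ± 0.15 (adjusted p = 0.982), or 0.39 after that scaling (adjusted p = 0.0297).

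Ubiquinone synthesis and binding gave 8 lower and 2 higher of 12 genes at 120 min, with a median of -0.76, and 3 lower and 1 higher at 30 min. After median-ratio scaling 6 were lower and 2 higher at 120 min. Coq2 and Coq9 fell by 2.08 ± 0.14 and 1.98 ± 0.12 (adjusted p = 5.25e-05 and 4.36e-05). Coq10b, which encodes a ubiquinone-binding protein, went the other way. It had 0.999 and 1.16, 8.66 and 5.23, and 15.4 RPKM in Ikaros-Zn4-/- cells and 2.40 and 2.06, 11.9 and 8.80, and 9.73 RPKM in WT cells. Every stimulated library lay above every library at 0 min, and the changes were 1.85 at 30 min (adjusted p = 0.00184) and 2.36 ± 0.21 at 120 min (adjusted p = 0.000117).

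The carriers, the inhibitor and the electron transfer flavoproteins gave 5 lower and 2 higher of 11 genes at 120 min, with a median of -0.04, and 1 higher at 30 min. After median-ratio scaling 3 were lower and 4 higher at 120 min. Slc25a3, which imports phosphate for complex V, had 69.4 and 64.7, 106 and 98.0, and 106 RPKM in Ikaros-Zn4-/- cells and 73.4 and 63.7, 113 and 110, and 109 RPKM in WT cells. All stimulated libraries lay above all libraries at 0 min, with changes of 0.65 at 30 min and 0.66 ± 0.11 at 120 min (adjusted p = 0.00617 and 0.00184). The electron transfer flavoprotein Etfb fell by 2.42 ± 0.13 (adjusted p = 3.7e-05), whereas Etfdh, which takes its electrons to ubiquinone, rose by 0.98 ± 0.14 (adjusted p = 0.000824).

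Genes for the expression of mitochondrial DNA gave 12 lower and 3 higher of 21 at 120 min, with a median of -0.55, and 3 lower and 1 higher at 30 min. After median-ratio scaling 8 were lower and 6 higher at 120 min. Tfam, which packages mitochondrial DNA and activates its transcription, was at 0.05 ± 0.13 (adjusted p = 0.757), or 0.43 after median-ratio scaling (adjusted p = 0.0113). Polrmt, the mitochondrial RNA polymerase, fell by 0.43 ± 0.13 (adjusted p = 0.0208), but was at -0.06 after median-ratio scaling (adjusted p = 0.699). Polg, the catalytic subunit of the DNA polymerase, fell by 1.69 ± 0.13 (adjusted p = 7.14e-05), and its accessory subunit Polg2 rose by 1.27 ± 0.35 (adjusted p = 0.0162).

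Regulators of nuclear respiratory genes gave 3 lower and 3 higher of 11 at 120 min, with a median of -0.15, and 1 lower at 30 min. After median-ratio scaling 1 was lower and 4 were higher at 120 min. Gabpb1, a partner of the ETS protein Gabpa, had 3.98 and 5.47, 4.16 and 4.16, and 23.3 RPKM in Ikaros-Zn4-/- cells and 3.58 and 3.96, 5.21 and 7.56, and 23.2 RPKM in WT cells, a rise of 2.22 ± 0.17 (adjusted p = 8.05e-05). Yy1 rose by 1.6 ± 0.13 (adjusted p = 9.21e-05), with 76.2 and 65.5 RPKM at 120 min in Ikaros-Zn4-/- and WT cells, against 21.3 to 23.7 RPKM at 0 min. Pprc1, a coactivator of NRF1, rose by 0.67 ± 0.17 (adjusted p = 0.0109), and Nrf1 itself was at -0.04 ± 0.11 (adjusted p = 0.784). Gabpb2 fell by 1.06 ± 0.10 (adjusted p = 0.000159).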

How the data were processed

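RNA of 10 libraries in 6 groups was made into single-end TruSeq libraries, per the labels' protocols, with a kit that does not mark strand. The authors deposited RPKM values, made with TopHat2 2.0.12, TopHat and HTSeq 0.6.1 on mm10 and GRCm38, per the submitters' processing notes. The sources used here do not give the roles of the tools, the annotation or the gene lengths. Every gene of the table reaches a group mean of 1 RPKM in some group. Depth and exon lengths were recovered with GENCODE M21, which matched 12567 of 12637 genes.

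Tests used limma 3.58.1 in R 4.3.3 on log2(RPKM + 1) of genes averaging 0.5 RPKM or more, with 1 mean per genotype and time (4 residual degrees of freedom) and an intensity trend. For genotype over all times, genotype and time entered without their interaction, which left 6 residual degrees of freedom. The lone 120 min libraries were assumed to vary like the other groups. P-values were two-sided and adjusted by the Benjamini-Hochberg method. The script was tested on simulated data. Tables and figures used Python 3.11.15, pandas 2.3.3 and matplotlib 3.10.9.

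The alternatives were other pseudocounts and filters, other scalings, no intensity trend, limma-voom on the recovered reads, a replicate block and leaving out each library. The Ikaros-Zn4-/- library at 120 min is numbered 1 in its title and 2 in its description, which was used, and this bears only on the block. The module, the gene lists and the rule for named genes were chosen with earlier results of these data known. The rule took all mt- members, in each complex and among the assembly factors the most abundant member and up to 2 called members each with the largest rise and the largest fall at 120 min relative to the median gene, the Sdh genes, Cyc1 and the 3 members with the smallest p between genotypes. Other genes given values, such as Ndufv1, Ndufa8, Ndufs1, Ndufaf4, Atp5b, Atp5c1, Cox5a and those of the wider pathway lists, were chosen after their values were seen.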

Additional observations from a re-analysis of the deposited data

Results flagged for a closer look

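In 3 members every library at 30 min lay above every library at 0 min in Ikaros-Zn4-/- cells and below every library at 0 min in WT cells, which is what marked them. The members were picked for this pattern, which 3 of 91 members (3.3%) and 1.48% of all genes showed. Counting either opposite direction, the shares were close, at 3.3% of members and 2.87% of all genes. Ndufb10, an accessory subunit of complex I, had at 30 against 0 min 43.7 and 45.7 against 29.1 and 36.7 RPKM in Ikaros-Zn4-/- cells, and 30.3 and 28.1 against 34.3 and 33.7 RPKM in WT cells. The interaction of genotype and time in limma was 0.65 on the log2 scale, with an unadjusted p of 0.0121 and an adjusted p of 0.876. For Atp5d, the delta subunit of complex V, the interaction was 0.51 (adjusted p = 0.876), with 75.2 and 79.0 against 51.9 and 68.2 RPKM in Ikaros-Zn4-/- cells and 53.6 and 56.7 against 58.3 and 63.6 RPKM in WT cells. For Ndufb8 it was 0.32 (adjusted p = 0.892), with 6.15 and 7.11 against 6.10 and 6.14 RPKM, and 4.96 and 5.13 against 5.56 and 6.54 RPKM. None of these 3 differences passed the adjusted test.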

How the results depend on the processing

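Of nuclear members at 120 min, 60 were called lower and 0 higher, 41 lower and 4 higher after median-ratio scaling, and 40 to 61 when single libraries were left out (40 without the Ikaros-Zn4-/- library at 120 min), and 40 members fell under every setting that keeps all libraries. Leaving out single libraries gave 24 to 49 between 120 and 30 min, 30 to 48 at 120 min in Ikaros-Zn4-/- cells and 27 to 42 in WT cells, 0 to 7 at 30 min, 0 to 2 in WT cells at 30 min, 2 to 5 for the genotypes over all times (2 without either of WT library 1 at 0 or 30 min, or Ikaros-Zn4-/- library 2 at 0 or 30 min) and 0 to 0 for the mt- members and all other counts. Without single libraries the nuclear to mitochondrial ratio of medians changed by -1.16 to -0.95 at 120 min and by -0.25 to -0.03 at 30 min.

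Median-ratio scaling gave 28 nuclear members at 120 min and 1 (higher) at 30 min in Ikaros-Zn4-/- cells, 2 mt- members at 120 min, and turned Uqcrh to 0.38. Scaling to genes outside the mitochondrial genome gave 10 at 30 min and 1 in Ikaros-Zn4-/- cells alone. Limma-voom gave 10 at 30 min, 1 in Ikaros-Zn4-/- and 6 in WT cells, 1 between the genotypes at 30 min and 8 over all times. A filter at 2 RPKM gave 2 in WT cells at 30 min and 1 between the genotypes at 30 min, and no intensity trend gave 0 in WT cells at 30 min. The causes were not tested.

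A fit with the replicate number as a block gave 21 nuclear members at 30 min (20 lower, 1 higher), 72 at 120 min and 59 between 120 and 30 min, 2 in Ikaros-Zn4-/- and 11 in WT cells at 30 min, and 2, 8 and 18 higher in Ikaros-Zn4-/- cells at 0 min, at 30 min and over all times. Same-numbered libraries deviated together with r of 0.0369 to 0.23 over 12203 genes, above 0.1 in 5 of 6 pairs of groups. The rule for taking the numbers as pairs was an r above 0.1 in every pair of groups. WT at 30 min with Ikaros-Zn4-/- at 0 min (0.0369) missed it, so the fit without the block was kept as the main one. Whether same-numbered libraries were handled together was not tested. Precision is limited by 1 library per genotype at 120 min and by depths of 4.50 to 13.3 M reads.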
